A study of Mus musculus with 6 samples.

Results

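Nonsense-mediated decay transcripts are spliced RNAs whose annotated reading frame ends well before the last exon junction. Of 142435 transcripts in the deposited transcript table, 7172 carry this type in the GENCODE M21 mouse annotation. The 4912 transcripts described here are those whose gene had a total of at least 100 counts in every library. They belong to 2980 genes, 24.3% of the 12273 genes that reached that total. The members lowest in gene counts were Adamts6, Aplf and Pi4k2b, with a lowest library at 100 counts, and the first genes left out were Limk1 and Stil at 99 and Dgkq at 98. For each gene and library the decay share is the sum of its decay transcript counts as a percentage of the gene total.

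The libraries hold RNA of OT-I CD8+ T cells, mouse T cells that share 1 transgenic receptor for an ovalbumin peptide. Groups of 2 libraries each were made 4 days after N4 peptide, 4 days after T4 peptide, and from naive cells. N4 and T4 are stronger and weaker ligands of this receptor, and both were given with anti-OX40/anti-41BB costimulation. Per the labels the cells came from spleen and lymph nodes, while the series text names spleens. Below, values are given in the order replicate 1 and replicate 2 of each group.

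In translation, a ribosome that stops upstream of an exon junction leaves the protein complex deposited at that junction on the RNA, and the factor UPF1 then marks the RNA for degradation. Many splicing regulators hold a poison exon, an exon that brings such a stop into their own mRNA and so lowers the amount of protein made. The best known are in SR proteins and TRA2 proteins, where the surrounding sequence is highly conserved among mammals. Because decay removes these RNAs, their level reflects both splicing and degradation. Steady-state counts cannot tell these apart, and in bulk samples fewer cells of a type and less RNA per cell cannot be told apart either.

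The sequences that end the reading frame are shown for members that the results below turn on. All are 5′ to 3′ on the transcript, in lower case with the stop codon in capitals, read by transcript identifier from GENCODE M21. The first 6 are poison exons, printed from the first base of the added exon to the stop codon.
Tra2b-206: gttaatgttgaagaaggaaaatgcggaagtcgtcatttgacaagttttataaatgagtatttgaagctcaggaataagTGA
Srsf3-201: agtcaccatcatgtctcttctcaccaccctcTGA
Srsf7-203: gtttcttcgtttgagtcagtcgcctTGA
Rbm39-222: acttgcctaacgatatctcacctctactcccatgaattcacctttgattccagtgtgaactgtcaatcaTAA
Cenpa-202: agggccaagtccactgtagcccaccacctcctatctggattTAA
Rps19-205: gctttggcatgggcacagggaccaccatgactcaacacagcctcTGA

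The Tra2b exon lies at chr16:22258986-22259261 on the minus strand of GRCm38 and is 276 bases long, with 78 coding bases before its stop. The Srsf3 exon (chr17:29039454-29039909, plus strand, 456 bases) and the Srsf7 exon (chr17:80204622-80205081, minus strand, 460 bases) stop after 31 and 25 bases. The Rbm39 exon (chr2:156178880-156178952, minus strand, 73 bases) ends 1 base after its stop. The Cenpa exon is at chr5:30669692-30669828 and the Rps19 exon at chr7:24886107-24886187, both on the plus strand.

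For 9 further members the last 27 coding bases and the stop codon are shown, since their stop arises next to a junction or in a shifted frame.
Taf1d-204: catgtgactattgaagaaggcttgtctTGA
Cd244a-203: cgtgtttctgagataagaaaggaatatTGA
Rps9-210: cgccaacgtcacattagcctttggagcTGA
Clk1-210: tcacacgggatgaaattgttgatacttTAG
Clk2-204: ttcagccgctcatcttcaatgaaattgTAA
Rnf114-203: tcatcctatctaagatccgggcccatgTGA
Vti1b-203: actacgatatgcacccctgactttccgTAA
Rpl12-201: gggtctgtctccgaagaaagttggcgaTGA
Ankrd37-205: ggacacttgtcatctgctttaggaggaTGA

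In Taf1d-204, Cd244a-203 and Rps9-210 the added exon contributes the last 8, 15 and 10 coding bases. Clk1-210 and Clk2-204 skip an exon of 91 and 88 bases, Rnf114-203 one of 151 and Vti1b-203 one of 59, none a multiple of 3. Their stops lie at chr1:58419713-58419715 (Clk1, minus strand), chr3:89170058-89170060 (Clk2, plus strand), chr2:167510904-167510906 (Rnf114, plus strand) and chr12:79165090-79165092 (Vti1b, minus strand). Rpl12-201 and Ankrd37-205 use another splice site or first exon, with stops at chr2:32962594-32962596 (plus strand) and chr8:45999396-45999398 (minus strand).

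Each decay transcript was compared with the complete coding transcript of its gene that had the most counts summed over all libraries. Skipping of an exon was the largest class, with 1431 transcripts (29.1%). An added exon holding the stop, the poison exon arrangement of Tra2b, was found in 1151 (23.4%), and another splice site or first exon in 1120 (22.8%). The stop lay in an exon extended into an intron in 511 transcripts (10.4%). In 77 (1.57%) an exon at or before the stop held a fully retained intron. Each transcript was put in a single class, the first that applied in a fixed order. The order began with the same stop as the coding transcript (195, 3.97%) and an added exon holding the stop. An added exon before the stop (270, 5.5%) and a skipped exon came next. A retained intron, an extended exon and another splice site followed. A transcript with an added exon up to the stop that also skipped another exon is thus not among the 1431. Of the 1144 transcripts that skipped a single exon, 95.9% skipped a length that is not a multiple of 3. The added exons with a stop had a median length of 119 bases.

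The annotated stop lay more than 50 bases before the last junction in 99.4% of the 4911 members with a stop, at a median of 320 bases. The stop codon was TGA in 57.2%, TAA in 23% and TAG in 19.8% of the 4885 members with a sequence. Mean shares above 5% of the gene total were reached by 21.4% of transcripts with an added exon holding the stop, by 16.9% of exon-skipping transcripts and by 49.4% of those with a retained intron.

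**Figure D1:**
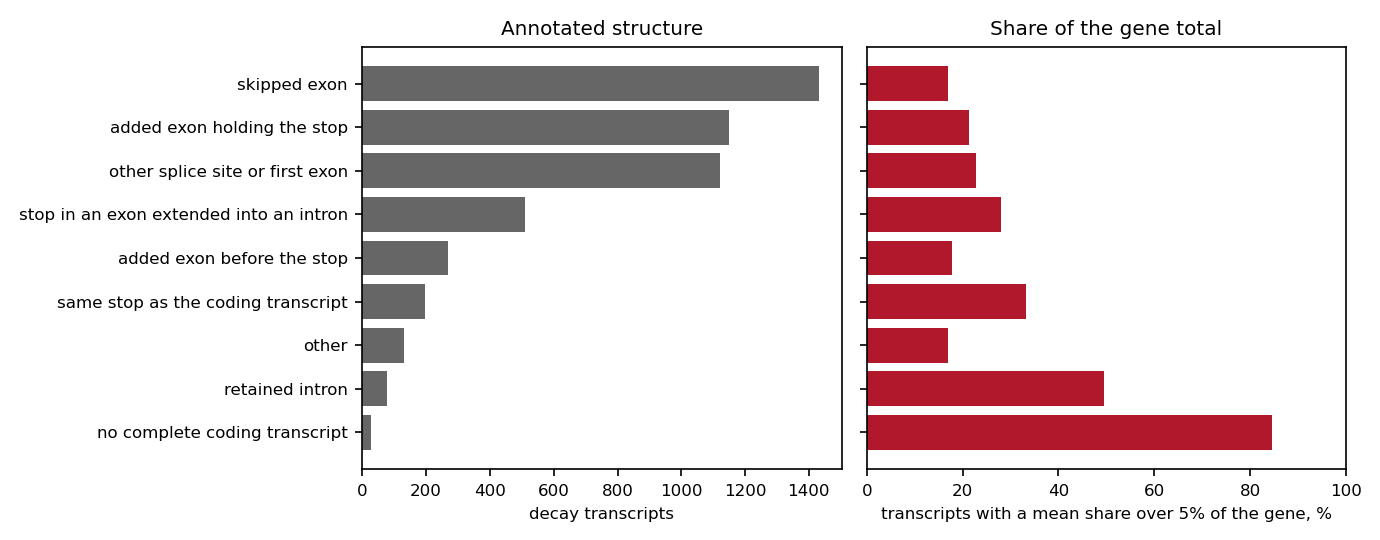
Annotated structure of the decay transcripts: left, the number of transcripts in each structural class, and right, the percentage of each class with a mean share over 5% of the gene total across the 6 libraries. Exon skipping and added exons with a stop are the largest classes, while the 77 retained-intron transcripts hold over 5% of the gene more often (49.4%), second to transcripts of genes with no complete coding transcript (84.6%).

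Most members were scarce. Of the 4912 transcripts, 1309 were listed at 0 in every library and 1100 were above 0 in every library. For 557 of the 2980 genes all decay transcripts were at 0 throughout, and for 1108 the decay share was below 1% in every library. A mean share of at least 5% was reached by 986 genes (33.1%) and one of at least 50% by 129. The share moved by over 10 points between the 2 replicates in 436 genes in N4, 402 in T4 and 435 in the naive group, so large differences between single libraries were frequent.

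Decay transcripts held 8.43% and 6.48% of all counts of the 2980 genes in N4, 12.4% and 6.25% in T4, then 6.7% and 5.65% in naive libraries. The groups overlapped, and 1 gene set the highest values. Lars2, the mitochondrial leucyl-tRNA synthetase gene, had 99.9% and 100% of its counts in its decay transcript in N4, 100% and 0 in T4, then 0 in both naive libraries. That transcript alone held 39.7% and 33.3% of all decay counts in N4 and 47.3% in T4 replicate 1. Without Lars2 the summed shares were 5.26% and 4.41% in N4, 6.97% and 6.57% in T4, then 7.36% and 5.98% in naive libraries. Both N4 libraries then lay below the other 4.

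The number of decay transcripts seen at all also differed. Of the decay transcripts, 40.4% and 38.2% were above 0 in N4, 53.7% and 53.4% in T4, then 52.7% and 40% in naive libraries. Naive replicate 2 thus stood with N4, and naive replicate 1 with T4. Other transcript types moved the same way: retained-intron transcripts were above 0 for 79% and 74.4% in N4, 88.3% and 87.9% in T4, then 88.3% and 77.5% in naive libraries. The part of this detection difference in the decay shares was not tested.

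**Figure D2:**
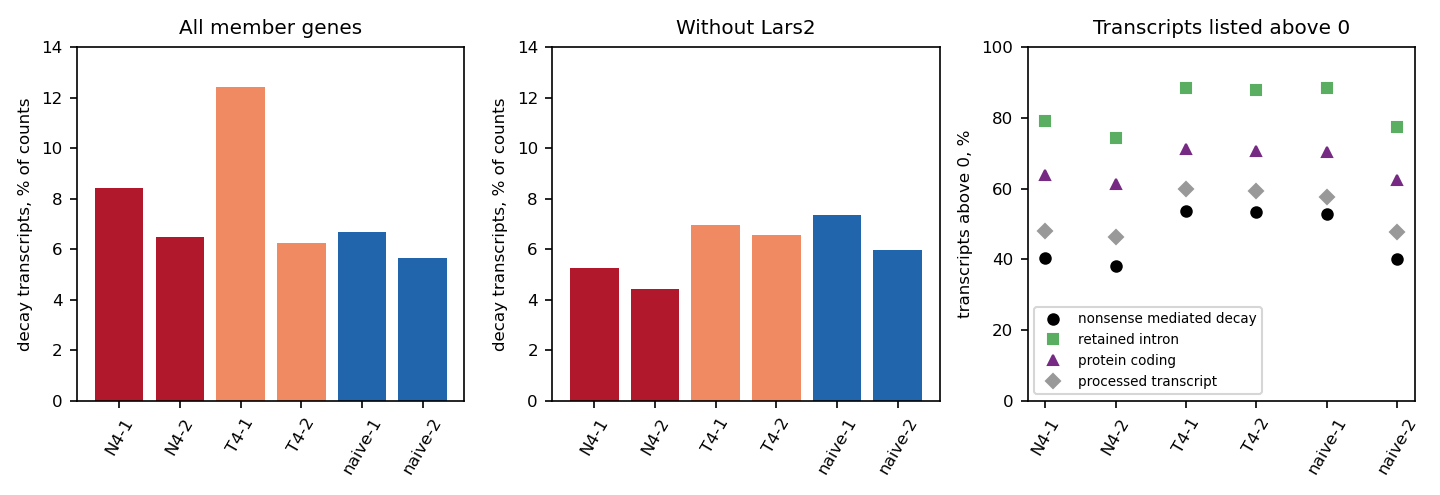
Bars give the decay transcripts' percentage of all counts of their genes in each library, with all 2980 genes (left) and without Lars2 (middle), and points give the percentage of transcripts above 0 by annotated type (right). Without Lars2 both N4 libraries (5.26% and 4.41%) are the lowest, and naive replicate 2 detects about as few decay transcripts (40%) as N4.

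The libraries were of similar size, with 269033066 to 335968843 estimated counts. CD8 T cell markers summed to 3664 to 7314 CPM (the count scaled to a fixed library total) in every library, so the labelled cell type was present throughout. Macrophage and monocyte markers summed to 21 and 17.3 CPM in N4, 270 and 256 in T4, then 2256 and 2674 in naive libraries, with 10 of 12 called lower in N4 than in naive and 2 at 0 in N4. Neutrophil markers summed to 47.5 and 38.6, 12.9 and 6.27, and 2439 and 25232 CPM in the same order, with 7 of 8 called lower in N4 than in naive libraries. Of all 23003 genes tested, 7.18% were called lower in N4 than in naive libraries. Red cell markers summed to 442 and 373 CPM in N4, 6862 and 8437 in T4, then 3631 and 9432 in naive libraries. The part of these cells in the decay shares was not tested.

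Taking genes one by one, the decay share lay lower in both N4 libraries than in both T4 libraries for 660 of 2980 genes (22.1%) and higher for 233 (7.82%). The same comparison over all 60481 transcripts of any type, in genes with several transcripts and at least 100 counts in every library, put 20.3% lower and 14.1% higher. Among single decay transcripts 17.9% were lower and 6.47% higher, and among retained-intron transcripts 27.6% and 15.5%. Against naive libraries, N4 was lower for 474 genes (15.9%) and higher for 288 (9.66%), beside 15.3% and 13.7% of transcripts of any type. T4 was higher than naive for 477 genes (16%) and lower for 281 (9.43%), beside 16.6% and 12.2%. All comparisons with naive libraries share those 2 libraries.

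The genes whose N4 share lay below T4 included both higher and lower totals. Of these 660 genes, 43 were called higher and 52 lower in total level, beside 153 and 156 of all 2980 (edgeR adjusted p under 0.05; over all 23003 genes tested, 7.96% were called, 3.48% higher and 4.47% lower). In N4 against naive libraries 188 members were called higher and 206 lower (12.1% of all genes, 4.87% higher and 7.18% lower), and in T4 against naive 2 and 1 (0.117%, 0.0826% and 0.0348%). These counts of total level depended on single libraries: the number of members called in either direction went from 394 in N4 against naive to 55 without N4 replicate 2, and from 309 in N4 against T4 to 0 without it or without T4 replicate 2.

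A change of the decay share itself was tested with edgeR's quasi-likelihood test of decay against other counts of the same gene, in 2027 genes with enough counts, 1870 of them members. In N4 against naive libraries 21 members passed an adjusted p of 0.05, 3 higher and 18 lower (1.04% of the genes tested were called, 0.148% higher and 0.888% lower). In N4 against T4, 8 passed, 1 higher and 7 lower (0.395%, 0.0493% and 0.345%), of which 7 were also among the 21. In T4 against naive 1 passed, lower (0.0493%). For 14 of the 21 and 6 of the 8, the decay transcripts were listed at 0 in both N4 libraries, which can also be a failed estimate, so no fold is given for them. Of the 21 genes, 0 stayed past the threshold with the replicate block, with only the groups compared, or when naive replicate 1 or any of the N4 and T4 libraries was left out, and 5 did without naive replicate 2. With limma on the log2 ratio 0 members were called in any comparison, and the lowest adjusted p among the 21 was 0.06. Of the 8 genes, 0 stayed past the threshold without N4 replicate 2 or either T4 library and 1, Ankrd37, without N4 replicate 1, while 5 and 4 did without naive replicates 1 and 2. The call in T4 against naive was lost whichever of the 6 libraries was left out.

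Relative use of single transcripts, tested with edgeR's diffSpliceDGE over 42443 transcripts, gave 14 member calls in N4 against naive, 4 higher and 10 lower (0.276% of transcripts tested were called, 0.0683% higher and 0.207% lower). It gave 2 in T4 against naive, 1 in each direction (0.0966%, 0.0613% and 0.0353%), and 19 in N4 against T4, 2 higher and 17 lower (0.335%, 0.0707% and 0.264%). Without T4 replicate 1, N4 against T4 gave 1 call in place of 19. The level of single decay transcripts gave 0 calls among 2545 members in each comparison with edgeR (0% of all 55122 transcripts were called). Its unadjusted p was under 0.05 for 412, 200 and 432 members in N4 against naive, T4 against naive and N4 against T4. Over all 55122 transcripts these numbers were 10172, 5238 and 9976. The DESeq2 Wald test called 441, 151 and 433 of the same members (17.3%, 5.93% and 17%), beside 9969, 3538 and 8963 of all 55122 transcripts.

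**Figure D3:**
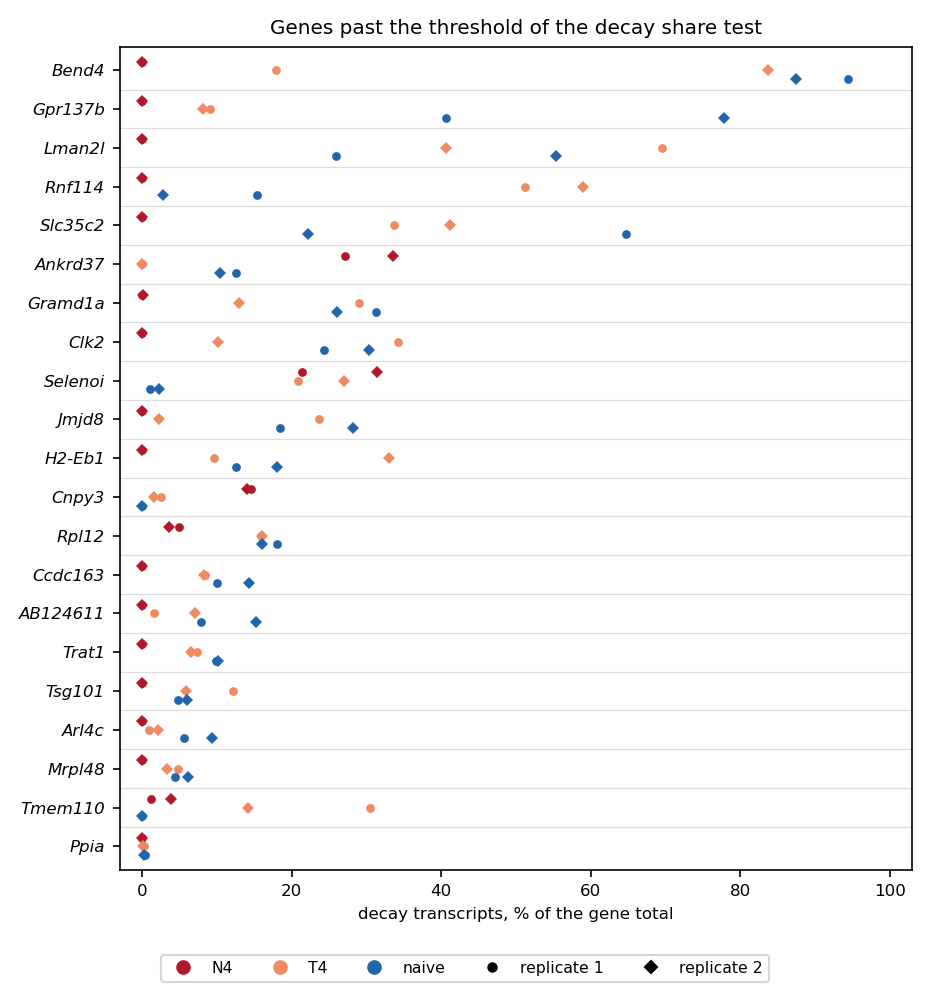
Decay share in percent of the gene total in each library, for 21 of the 22 genes past the threshold of the decay share test in any comparison, with groups by colour and replicates by symbol. Most have both N4 libraries at 0, while Selenoi, Cnpy3 and Ankrd37 are high in N4.

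Rpl12, which encodes a protein of the large ribosomal subunit, was called with counts in every library. Its decay transcript Rpl12-201 held 5.01% and 3.58% of the gene in N4, 15.9% and 16.1% in T4, then 18.1% and 16% in naive libraries. The N4 share fell to 4.3% ± 1.01 from 17% ± 1.47 in naive libraries (SD, n = 2, edgeR adjusted p = 0.036), and the difference from T4, 11.7 points in the same direction, had an adjusted p = 0.059. Total Rpl12 expression was 673 and 829 CPM in N4, 659 and 744 in T4, then 710 and 1101 in naive libraries, so the groups overlapped. An exon of Rpl12 overlaps the gene Lrsam1, and ribosomal protein genes have processed copies that can share reads. Rpl12 was not reached by the naming rule and was chosen after its values were seen, as were Clk2, Mrpl48, Trat1, Arl4c, Ccdc163, Ppia, Tmem208, Serf2 and Pet100.

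Selenoi, which encodes an enzyme of phosphatidylethanolamine synthesis, had decay shares of 21.4% and 31.5% in N4, 20.9% and 27% in T4, but 1.05% and 2.23% in naive libraries. The rise in N4 over naive passed the test (adjusted p = 0.037), while that in T4, of similar size, did not (adjusted p = 0.15). Total Selenoi also rose in N4, to 39 and 60.7 CPM from 11.5 and 12.6 in naive libraries (log2 fold change 2.05, adjusted p = 0.016). Cnpy3, a chaperone gene for Toll-like receptors, had 14.6% and 14.1% in N4, 2.54% and 1.63% in T4, then 0 in naive libraries (adjusted p = 0.024 in N4 against naive). Tmem110, a regulator of store-operated calcium entry, had 1.2% and 3.86% in N4, 30.5% and 14.2% in T4, then 0 in naive libraries (adjusted p = 0.036 in N4 against naive). Its N4 values came from different transcripts, Tmem110-206 (1.2% and 0) and Tmem110-203 (0 and 3.86%).

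Ankrd37, a hypoxia-responsive ankyrin repeat gene, was the call in T4 against naive libraries. Its decay transcript held 27.1% and 33.6% of the gene in N4, 12.6% and 10.4% in naive libraries and was listed at 0 in both T4 libraries. N4 and T4 therefore stood on opposite sides of naive, and the share fell in T4 against naive (adjusted p = 0.015) and was higher in N4 than in T4 (adjusted p = 0.0074). Total Ankrd37 rose in N4 to 41.9 and 60.3 CPM, from 7.87 and 11.2 in T4 (log2 fold change 2.42, adjusted p = 0.025). Its exons overlap those of Lrp2bp and Ufsp2.

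Rnf114, a ubiquitin ligase gene, showed the reverse. Its exon-skipping transcript Rnf114-203 was at 0.0399% and 0 in N4, at 51.2% and 59% in T4, then at 15.4% and 2.78% in naive libraries. The N4 share was below that of T4 (adjusted p = 0.02) and below that of naive libraries (adjusted p = 0.036). In T4 against naive libraries the difference of 46 points did not pass (adjusted p = 0.55). Exons of Rnf114 overlap those of Spata2.

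In 3 further called genes both N4 libraries were listed at 0. Lman2l, which encodes a lectin-type cargo receptor, had 69.5% and 40.7% in T4, then 26% and 55.4% in naive libraries (adjusted p = 0.02 against T4 and 0.024 against naive). Slc35c2, a Golgi transporter gene, had 33.7% and 41.2% in T4, then 64.8% and 22.2% in naive libraries (0.024 for both). Tsg101, a subunit of the ESCRT-I sorting complex, had 12.2% and 5.93% in T4, then 4.88% and 6.02% in naive libraries (0.025 and 0.036). All 3 were detected in N4 with other transcripts, at 3.16 to 11.6 CPM in total.

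H2-Eb1, Trat1 and Arl4c were also at 0 in both N4 libraries. H2-Eb1, a class II antigen presentation gene, had decay shares of 0 in N4, 9.62% and 33.1% in T4, then 12.6% and 18% in naive libraries (adjusted p = 0.036 against naive and 0.038 against T4). Its total was 5.25 and 2.96 CPM in N4, 34.5 and 33.3 in T4, then 144 and 66.6 in naive libraries. Dendritic cell markers, a list that holds H2-Eb1 itself, summed to 88.5 and 66.1, 570 and 552, and 2098 and 1330 CPM in the same order. The class II genes H2-Aa and H2-Ab1 and then Cd74 were the largest members in naive libraries. Of the 9 markers 5 were called lower in N4 than in naive libraries, beside 7.18% of all genes tested. Itgax ran the other way, at 4.04 and 3.72 CPM in N4 beside 2.78 and 2.65 in naive libraries, and Zbtb46 overlapped. The part of these cells in the H2-Eb1 share was not tested. Trat1, an adaptor of the T cell receptor complex, had 0 in N4, 7.33% and 6.59% in T4, then 9.9% and 10.2% in naive libraries (adjusted p = 0.048 against naive), while its total fell to 2.27 and 1.51 CPM in N4 from 35.9 and 37.1 in naive libraries (log2 fold change -4.27, adjusted p = 0.0071). Arl4c, a small GTPase gene, had 0 in N4, 0.99% and 2.08% in T4, then 5.63% and 9.32% in naive libraries (adjusted p = 0.025 against naive). Ppia, the cyclophilin A gene, passed with a change from 0.35% and 0.298% in naive to 0.0473% and 0.0436% in N4 (adjusted p = 0.036), with 0.249% and 0.129% in T4.

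The function lists are described by counts, with edgeR's share test; limma called 0 genes of each list in each comparison. Among 11 SR and TRA2 splicing factors with 19 decay transcripts, 0 passed the share test in any comparison, with 2, 0 and 2 at an unadjusted p under 0.05 in N4 against naive, T4 against naive and N4 against T4. In N4 against T4, 6 of the 11 (54.5%) lay lower in both N4 libraries and 1 higher, beside 22.1% and 7.82% of all 2980 genes, and their median difference was -1.40 points beside 0.00. These baselines are not alike: 557 of the 2980 genes were at 0 in every library and cannot lie lower or higher, beside 0 of the 11. The other lists also differ in this number. A mean share of at least 5% was carried by 6 of the 11 (54.5%, beside 33.1% of all members).

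Tra2b, a splicing activator that controls its own level through its poison exon, had decay shares of 30.7% and 26.9% in N4, 40.5% and 44% in T4, then 36.8% and 34% in naive libraries. The 3 groups did not overlap, with N4 lowest and T4 highest. The difference of N4 from T4 was -13.4 points, with SDs of 2.68 and 2.47, and had an adjusted p = 0.91 (edgeR). The transcript Tra2b-206 alone held 30.7% and 26.3%, 40.4% and 44%, and 36.4% and 34% in N4, T4 and naive libraries. In CPM the decay transcripts stood at 35.7 ± 0.217 in N4, 39.5 ± 1.36 in T4, then 29.1 ± 4.35 in naive libraries.

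Srsf7, an SR protein gene with an ultraconserved poison exon, had 9.8% and 5.85% in N4, 14.7% and 18% in T4, then 25.1% and 8.99% in naive libraries. N4 lay below T4 without overlap (adjusted p = 0.36), while the naive libraries overlapped both. Srsf3, which also represses itself through a poison exon, had 26% and 1.99% in N4, 6.45% and 29.9% in T4, then 7.4% and 25.8% in naive libraries. The spread within each group covered most of the whole range. Srsf3 total expression rose in N4, at 1611 and 2098 CPM beside 461 and 650 in naive libraries (log2 fold change 1.74, adjusted p = 0.022).

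The kinases that phosphorylate SR proteins include the CLK family, and the leading decay transcripts of Clk1, Clk2 and Clk3 skip an exon. Of 7 such genes, 1 was called, Clk2. Its decay transcript was at 0 in N4, at 34.2% and 10.2% in T4, then at 24.3% and 30.3% in naive libraries (edgeR adjusted p = 0.036 for N4 against naive and 0.058 against T4). Clk2 was low in all libraries, from 4.79 to 11.4 CPM. Clk1 had 31.8% and 36.2% in N4, 45.3% and 47% in T4, then 49.4% and 29.3% in naive libraries, so N4 lay below T4 (adjusted p = 1) and naive spanned both. The Clk1 total fell in N4 to 26.3 and 31.8 CPM from 81.5 and 64.2 in naive libraries (log2 fold change -1.33, adjusted p = 0.026). Clk3 stayed between 3.6% and 9.9% in all 6 libraries.

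Of 14 hnRNP and PTB genes, which encode splicing repressors and RNA-packaging proteins, 0 were called for the share (1, 0 and 1 at an unadjusted p under 0.05 in the same comparisons), and 5 (35.7%) were lower in both N4 than in both T4 libraries with 1 higher. Hnrnpa1 had 16.4% and 18.5% in N4, 27.3% and 29.3% in T4, then 29.4% and 23.8% in naive libraries (adjusted p = 0.7 against T4). Its decay transcripts went separate ways. Hnrnpa1-203 was lowest in N4, at 7.23% and 8.75%, 21% and 23.4%, and 24.5% and 22.7% in N4, T4 and naive libraries. Hnrnpa1-204 was highest in N4, at 9.15% and 9.79%, 6.31% and 5.88%, and 4.89% and 1.11%. Hnrnpd, also known as AUF1, had 5.74% and 8.76%, 10.6% and 19.9%, and 15.8% and 14.8% in the same order. In both genes the N4 libraries lay below the other 4. Both totals rose in N4 over naive, Hnrnpd by a log2 fold change of 2.16 (adjusted p = 0.012) and Hnrnpa1 by 0.94 (0.044), and 5 of the 14 genes did so with 0 falling, beside 4.87% and 7.18% of all genes tested.

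Among 27 core spliceosome genes 0 passed the share test (3 at an unadjusted p under 0.05 in each comparison), and 9 (33.3%) were lower and 3 higher in N4 than in T4. U2af1, which recognises the 3′ splice site, had 16.8% and 14.5% in N4, 23.2% and 24.7% in T4, then 21.7% and 21% in naive libraries. The groups were separate and in the order seen for Tra2b, with an adjusted p = 0.75 between N4 and T4. Snrpa1, a U2 snRNP protein gene, had 12.5% and 7.5%, 19.9% and 18.5%, and 26.1% and 24.1%, with N4 lowest. Snrpe, a core Sm protein gene, ran the other way at 7.15% and 8.64% in N4, 6.58% and 5.7% in T4, then 4.25% and 3.82% in naive libraries.

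The list of 41 other RNA-binding regulators had 0 calls (2, 3 and 0 unadjusted), with 4 lower (9.76%) and 3 higher (7.32%) in N4 than in T4. The RNA helicase gene Ddx5 was at 72% and 76.4% in N4, 59.4% and 58.7% in T4, then 61.8% and 60.4% in naive libraries. N4 lay above the other 4 libraries (adjusted p = 1), and the leading decay transcript retains an intron. Rbm39, a U2AF-related splicing factor, had 19.9% and 11.5% in N4, 18.3% and 15.5% in T4, then 14.2% and 9.7% in naive libraries. N4 overlapped both other groups, while both T4 libraries lay above both naive libraries (adjusted p = 1). Its single transcripts differed. Rbm39-222, whose exon is printed above, held 10.3% and 7.83% in N4, 5.12% and 5.78% in T4, then 4.83% and 4.02% in naive libraries. Its N4 libraries were thus highest, as were those of Rbm39-224 (0.324% and 0.927%), while Rbm39-223 was lowest in N4 (0.421% and 0.624%). None of these was called in the test of relative use. Rbm3, a cold-induced RNA-binding protein gene, stayed between 2.84% and 7.33% while its total rose in N4 to 1686 and 2776 CPM from 531 and 515 in naive libraries (log2 fold change 2.09, adjusted p = 0.017).

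Other RNA-processing genes were named for the size of their difference. Rbmx, which encodes hnRNP G, had 14.2% and 8.84% in N4, 39.9% and 30.7% in T4, then 42.3% and 44.8% in naive libraries. Taf1d, a subunit of the RNA polymerase I factor SL1 and a host of small nucleolar RNAs, had 4.42% and 9.23% in N4, 35.4% and 33.3% in T4, then 48.5% and 40.9% in naive libraries. In both the N4 libraries lay far below the rest, yet the adjusted p for N4 against naive was 0.58 for Rbmx and 0.059 for Taf1d. Total Taf1d rose in N4 over naive (142 and 170 CPM against 50.8 and 73.3, adjusted p = 0.034), and 12 annotated genes overlap its exons. Rbm25, a splicing regulator of apoptosis genes, had 21.2% and 2.06% in N4, 2.33% and 4.12% in T4, then 39.3% and 43.6% in naive libraries (adjusted p = 0.37 for T4 against naive).

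**Figure D4:**
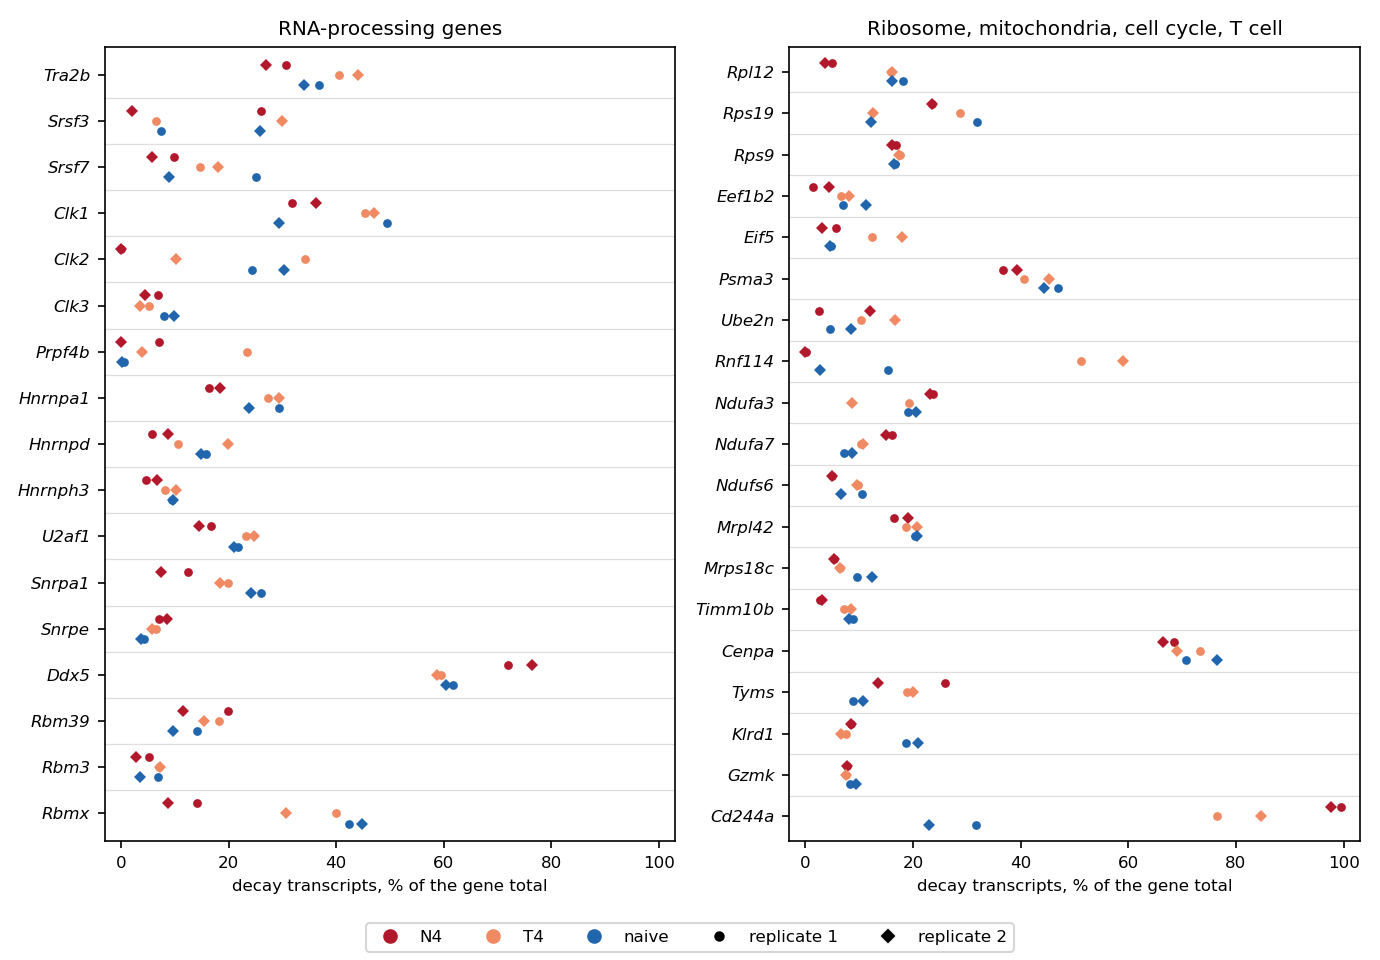
Decay share in percent of the gene total for named genes, by group (colour) and replicate (circle or diamond), with RNA-processing genes on the left and the other functions on the right. Tra2b and U2af1 have 3 separate groups with N4 lowest, Rpl12 has N4 below T4 and naive libraries that overlap, Ddx5 and Cd244a have N4 highest, and Srsf3 varies as much within as between groups.

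Of the factors that carry out decay, 6 have decay transcripts among the members, and 0 were called for the share (3 were tested, 0 at an unadjusted p under 0.05). Dcp1a, a decapping factor, had 0 and 54.5% in N4, 52.4% and 55.2% in T4, then 55.3% and 75.7% in naive libraries, at a total of 2.65 to 6.04 CPM. The wider list of 29 decay and exon junction factors had 3 genes with higher totals and 0 lower in N4 against naive (edgeR), beside 4.87% and 7.18% of all genes tested, with a median log2 fold change of 0.21 beside -0.09 for all genes. The 3 were the exon junction core genes Magoh (1.83, adjusted p = 0.038) and Magohb (1.86, 0.044) and the release factor gene Etf1 (1.36, 0.019). In N4 against T4 3 were also higher, Magoh (2.05, 0.039), Magohb (2.19, 0.04) and the cap-binding gene Ncbp2 (1.38, 0.044), and in T4 against naive 0 passed. Upf1 itself ranged from 1.41 to 8.86 CPM with overlapping groups.

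Among 19 cytosolic ribosomal protein genes 1 was called, Rpl12, and 8 (42.1%) were lower and 1 higher in both N4 than in both T4 libraries. The median difference of the list was small, at -0.06 points, and 0 of the 19 were at 0 in every library. Rps9 kept a steady share, at 16.8% and 16% in N4, 17.5% and 17.4% in T4, then 16.7% and 16.5% in naive libraries. Rps19 had 23.6% and 23.5% in N4, but 28.8% and 12.6% in T4, then 31.8% and 12.1% in naive libraries, so its T4 and naive replicates differed by over 10 points.

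In the list of 32 translation factors and tRNA synthetases, 0 were called (3, 1 and 2 unadjusted), while 10 (31.2%) were lower and 2 higher in N4 than in T4. Eif5, the GTPase activator of start codon selection, had 5.7% and 3.06% in N4, 12.3% and 18% in T4, then 4.66% and 4.58% in naive libraries, with T4 highest (adjusted p = 0.71 against naive). Eef1b2, an elongation factor exchange subunit, had 1.48% and 4.44%, 6.66% and 8.06%, and 6.91% and 11.3%, with N4 lowest. Of 84 proteasome and ubiquitin ligase genes 1 was called in each of N4 against naive and N4 against T4, which was Rnf114, and 23 (27.4%) were lower and 4 higher in N4 than in T4. Psma3, a proteasome core subunit, had 36.7% and 39.4% in N4, 40.7% and 45.3% in T4, then 46.9% and 44.3% in naive libraries, and its total rose in N4 over naive by 1.38 on the log2 scale (adjusted p = 0.047). Ube2n, a ubiquitin-conjugating enzyme gene, had 2.58% and 12% in N4, 10.4% and 16.6% in T4, then 4.61% and 8.5% in naive libraries, with T4 above naive (adjusted p = 1) and N4 overlapping both.

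Mitochondrial genes gave both directions. Of 25 genes of mitochondrial translation and import 1 was called in N4 against naive and in N4 against T4, Mrpl48, a ribosomal protein gene, with 0 in N4, 4.86% and 3.32% in T4, then 4.42% and 6.1% in naive libraries (adjusted p = 0.024 and 0.02). In that list 8 (32%) were lower and 4 higher in N4 than in T4, and 11 (44%) lower and 3 higher in N4 than in naive libraries, beside 15.9% and 9.66% of all members. Timm10b, an import chaperone gene, had 2.61% and 3.13% in N4, 7.11% and 8.55% in T4, then 8.88% and 8.01% in naive libraries. Mrps18c had 5.21% and 5.34%, 6.45% and 6.45%, and 9.59% and 12.3% in the same order, while Mrpl42 stayed between 16.4% and 20.8%.

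Of 24 respiration genes 0 were called (1, 2 and 2 unadjusted), with 7 (29.2%) lower and 4 higher in N4 than in T4. The complex I genes went separate ways: Ndufa7 had 16% and 15% in N4, 10.4% and 10.7% in T4, then 7.22% and 8.68% in naive libraries. Ndufs6 had 4.92% and 4.93% in N4, 9.7% and 9.64% in T4, then 10.5% and 6.67% in naive libraries. The N4 libraries were thus the highest for Ndufa7 and the lowest for Ndufs6, with adjusted p = 0.47 and 0.66 against naive.

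Of 31 cell cycle genes 12 rose in total level in N4 over naive libraries and 0 fell, beside 4.87% and 7.18% of all genes tested. Their decay shares gave 0 calls (0, 1 and 0 unadjusted), with 3 (9.68%) lower and 1 higher in N4 than in T4. Cenpa, the centromeric histone H3 variant, kept 68.5% and 66.4% of its counts in decay transcripts in N4, 73.4% and 69% in T4, then 70.8% and 76.5% in naive libraries, while its total rose from 95.7 and 123 CPM in naive to 287 and 315 in N4 (log2 fold change 1.46, adjusted p = 0.021). Tyms, the thymidylate synthase gene, had 25.9% and 13.4% in N4, 18.8% and 19.9% in T4, then 8.81% and 10.6% in naive libraries. Both stimulated groups lay above naive for Tyms, with adjusted p = 0.48 for N4 and 0.8 for T4.

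Of 26 T cell receptor and signalling genes 0 passed (1, 0 and 1 unadjusted), and 4 (15.4%) were lower and 1 higher in N4 than in T4. Hras, Dgka and Ptpn22 each varied by over 10 points within a group. Of 5 cytotoxic and effector genes 0 passed (1, 1 and 0 unadjusted). Klrd1, which encodes the CD94 receptor, had 8.37% and 8.46% in N4, 7.45% and 6.65% in T4, then 18.6% and 20.9% in naive libraries (adjusted p = 0.29 for N4 and 0.35 for T4 against naive). Natural killer cell markers summed to 3.43 and 2.83 CPM in N4, 33.5 and 33.2 in T4, then 94.6 and 145 in naive libraries, and their part in the Klrd1 share was not tested. Gzmk, the granzyme K gene, held a nearly constant 7.45% to 9.3% while its total went from 3.05 and 21.8 CPM in naive to 300 and 327 in N4 (log2 fold change 4.66, adjusted p = 0.03).

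Cd244a, the 2B4 receptor of cytotoxic lymphocytes, was named for the size of its difference. Its decay transcript Cd244a-203 held 99.6% and 97.6% of the gene in N4, 76.5% and 84.7% in T4, then 31.7% and 22.9% in naive libraries. The 3 groups did not overlap. The difference of 71.3 points between N4 and naive had an adjusted p = 0.32 (edgeR), and total expression was 15.3 and 18.8 CPM in N4, 5.49 and 6.28 in T4, then 8.04 and 10.6 in naive libraries. Vti1b, a SNARE gene of endosomal fusion, had 34.9% and 33.4% in N4, 25.7% and 34.8% in T4, then 8.53% and 11.2% in naive libraries, with adjusted p = 0.091 for N4 and 0.35 for T4.

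Among 11 transcription factors of T cell fate 0 were called (1, 1 and 0 unadjusted), and 0 lay lower and 1 higher in N4 than in T4. Nr4a2, an early response gene, ranged from 0 to 79.3% at a total of at most 6.89 CPM. Of 60 chromatin regulators 0 were called (6, 4 and 6 unadjusted), and 15 (25%) were lower and 2 higher in N4 than in T4. Cbx1, the heterochromatin protein HP1-beta gene, had 68.4% and 66.8%, 60.4% and 53%, and 58.7% and 73.7% in N4, T4 and naive libraries, so its naive libraries overlapped both other groups. Of the 75 genes in the membrane traffic list 1 was called in N4 against naive and 0 in N4 against T4, and 13 (17.3%) were lower and 9 higher in N4 than in T4. The list is not complete for this function: Lman2l and Tsg101, called in N4 against T4 and described above, are not in it. Trappc6b, a tethering complex subunit gene, had 20.6% and 22.8% in N4, 49.2% and 15.2% in T4, then 45.8% and 46.6% in naive libraries.

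**Figure D5:**
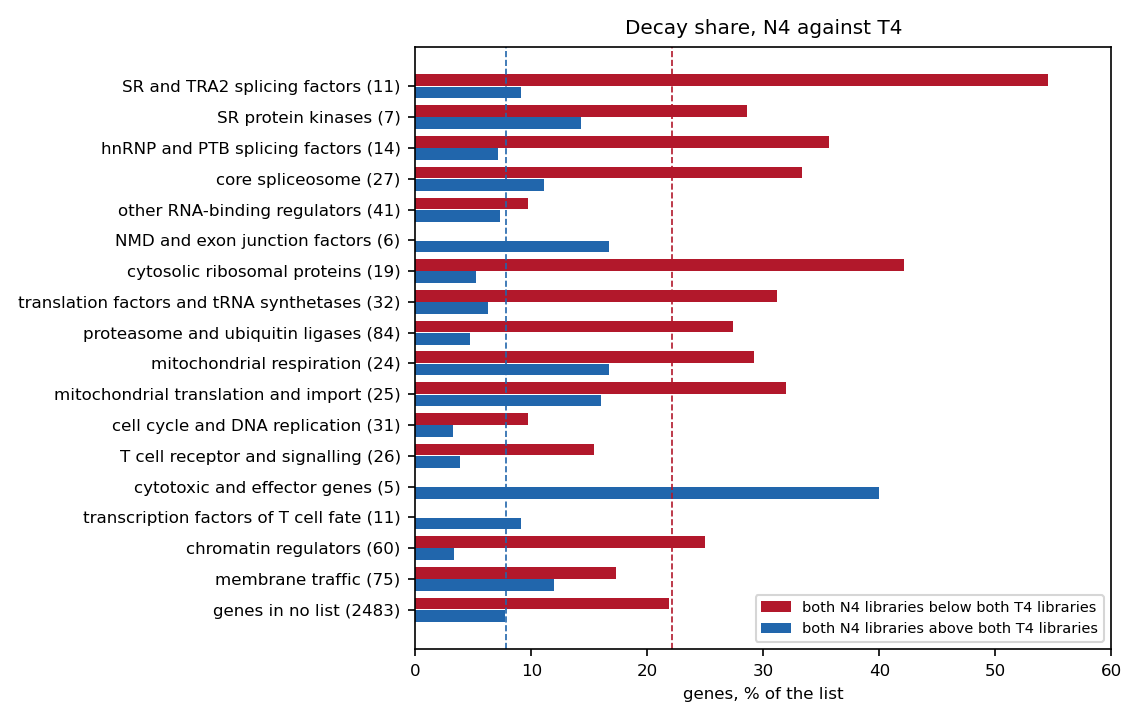
Percentage of the genes of each function list whose decay share was lower (red) or higher (blue) in both N4 than in both T4 libraries, with the number of genes in parentheses and dashed lines at the values over all 2980 genes. The SR and TRA2 list has the highest percentage lower, 54.5% of 11 genes, and 3 lists of 5 to 11 genes have none lower. Of the 2980 genes, 557 were at 0 in every library and cannot lie lower or higher, beside 0 of the SR and TRA2 list.

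Some genes had separate groups without passing the test. Fam189b had 0 and 3.27% in N4, 33.5% and 35.1% in T4, then 0.0729% and 1.05% in naive libraries, so T4 stood apart from both other groups (adjusted p = 0.41 for N4 against T4). Its T4 libraries reached this sum through different transcripts. Fam189b-206 held 32.5% and 2.39% in T4, and Fam189b-209 held 0.963% and 32.7%, so neither was high in both. Its total fell in N4 against naive by 2.34 on the log2 scale (adjusted p = 0.0082). Brap, a BRCA1-binding ubiquitin ligase gene, had 1.13% and 1.68%, 27.8% and 29.3%, and 34.1% and 24.2%, with N4 apart. Tmem208, a membrane protein targeting gene, had 34.2% and 34.1% in N4, 53.3% and 53.2% in T4, then 57.5% and 47.9% in naive libraries (adjusted p = 0.73 for N4 against T4).

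At the other end, 16 genes had all counts in decay transcripts in every library. Usp50, a deubiquitinase family gene, was at 100% after rounding, with a total of 96 to 519 CPM. For Gm49356, Gm42715, Gm21988, Sssca1 and Gm49392 the annotation holds no complete coding transcript to set against the decay transcript. Whether other transcripts of these genes could hold counts was not examined. Single libraries could stand apart. Serf2 had 36% in N4 replicate 1 and 0 in the other 5. Pet100, an assembly factor of cytochrome oxidase, had 87.5% and 91.4% in N4, 80% and 4.18% in T4, then 80.2% and 0.00807% in naive libraries.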

How the data were processed

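RNA extracted with a miRNeasy Micro kit went, per the labels' protocols, into poly(A) libraries of the SMARTer ultra-low type. That kit does not mark strand, so overlapping genes are uncertain (32 of 106 named genes have exons overlapping a protein-coding gene). The authors deposited whole-number estimated counts per gene and per transcript, not normalized. The submitters' processing notes name DESeq2 1.30.1, R 4.0.5, StringTie 2.1.0, STAR 2.7.1a, SAMtools 1.9 and the build mm39, without saying what each did. Neither annotation release nor strand setting is given in the sources used here. Estimated transcript counts divide reads among transcripts that share exons, so single values can jump to 0 or to 100%, and totals are not read numbers.

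Types, structures and positions come from GENCODE M21 on GRCm38, matched by identifier without version to 97.1% of transcripts. With a newer annotation upstream, some types may differ. Tests used limma 3.58.1 and edgeR 4.0.16 (R 4.3.3) over all 6 libraries: TMM scaling, filterByExpr, group means, the quasi-likelihood test, and Benjamini-Hochberg adjustment over all features tested, at 0.05. The share test compared decay with other counts of each gene, and limma used log2 ratios with 0.5 added. DESeq2 1.42.0 was an alternative. CPM is scaled by TMM. Procedures were also run on simulated counts with planted changes, and the outcome is not reported here.

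The labels do not say that replicates are separate mice, so p-values reflect only how far these libraries spread, and that spread may be technical. An exact permutation test of 2 against 2 cannot go below p = 0.33. Members and lists were chosen with earlier results of these data known. Named genes are Tra2b, per function list the 3 most abundant genes with a mean share of at least 5%, up to 6 called members per direction and comparison, the 6 largest non-overlapping rises and falls per comparison with at least 1000 counts in every library and SDs of at most 10 points, and the 6 highest shares (96 genes, plus 10 chosen after their values were seen). Some named genes are not reported here.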

Additional observations from a re-analysis of the deposited data

Results flagged for a closer look

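In 68 of 2980 genes (2.28%) both N4 and both T4 libraries lay on opposite sides of both naive libraries, and 7 of these are among the named genes. The values below are N4 minus T4 in points of the decay share, with the edgeR adjusted p of that difference. They were -13.4 for Tra2b (0.91), -8.31 for U2af1 (0.75), -55.1 for Rnf114 (0.02), 15.1 for Ddx5 (1), 30.4 for Ankrd37 (0.0074), 27.6 for N4bp2l1 (0.96) and 26.5 for Elk4 (0.99). The difference passed the test for Ankrd37 and Rnf114, and in the other 5 genes it did not.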

How the results depend on the processing

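The alternative without Lars2, and at gene level the replicate block, RLE scaling, no filter and only the groups compared, were chosen after seeing the data. No result reversed a call. Member calls are given in the order N4 against naive, T4 against naive, N4 against T4. Transcript usage gave 14, 2 and 19 calls, and 4, 1 and 6 with the replicate block. With only the groups compared it gave 4 in T4 against naive and 52 in N4 against T4, and without the filter 1 in T4 against naive. Leaving out 1 library at a time gave 5 to 18, 0 to 7 and 1 to 25. The decay share gave 21, 1 and 8 calls, then 0, 0 and 25 with only the groups compared, 0 with limma in each comparison, and 0 and 1 with the replicate block in N4 against naive and N4 against T4; leaving out 1 library gave 0 to 10, 0 and 0 to 11. Decay transcript levels gave 0 calls with edgeR and 441, 151 and 433 with DESeq2, and 0 to 1 without 1 library in N4 against naive. Of all 55122 transcripts DESeq2 called 9969, 3538 and 8963.

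Gene totals gave 394, 3 and 309 calls, 883, 210 and 873 with DESeq2, 111, 0 and 868 with only the groups compared, 0 with RLE scaling and 7 without the filter in T4 against naive, 6 and 615 with the replicate block in T4 against naive and N4 against T4, and 55 to 742, 0 to 21 and 0 to 789 without 1 library. The replicate numbers are shared between groups, but the labels name no shared source: same-numbered libraries correlated in their deviations at 0.22, 0.37 and 0.23 for gene totals and at -0.05, 0.01 and 0.00 for decay shares. The summed decay share of N4 minus naive, 1.28 points, was -1.83 without Lars2, -1.29 without the 10 genes with the most decay counts and -1.19 with counts divided by transcript length. The median share of N4 minus T4, -0.545 points, was -1.05 with counts divided by length and -0.628 with a minimum of 1000 counts. Of 17 function lists, the number with a lower mean share in T4 than in naive libraries was 6, and 3 to 10 without 1 library. Of the values of single genes and of the mean differences of function lists, 1706 kept their call or size, 248 lost their call and 152 moved by more than the spread. Library totals are estimated counts, so the read depth behind a share is unknown.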
